A study of Mus musculus with 298 samples.

Results

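The genes described here encode synaptotagmins, syntaxins, vesicle-associated membrane proteins (VAMPs) and the SNAP-25 family, the proteins that fuse vesicles with membranes. They were chosen by symbol, as every row of the count table named Syt, Stx or Vamp followed by a number, together with Snap23, Snap25, Snap29 and Snap47. The rule found 43 of 22800 genes, of which 17 were synaptotagmins, 15 syntaxins, 7 VAMPs and 4 members of the SNAP-25 family. All 43 had at least 1 read somewhere, and 36 reached 5 CPM (reads scaled to a common library size) when the reads of all cells were summed.

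The cells were interneurons of the suprachiasmatic nucleus (SCN), the circadian pacemaker of mice, each recorded by patch clamp in a slice before its cytoplasm was drawn into the pipette and sequenced. Mice were kept under light for 12 h a day, and tissue was sliced near zeitgeber time (ZT) 0 for the day cells or near ZT 12 for the night cells, where ZT 0 is lights on. The labels give each cell a firing state (active, silent or depolarized) and a cFOS state (cFOS+ or cFOS-), and name no strain, genotype, age, animal or slice. Day cells numbered 51 active cFOS+, 27 active cFOS-, 17 silent cFOS+, 32 silent cFOS-, 2 depolarized cFOS+ and 7 depolarized cFOS-. Night cells numbered 41 active cFOS+, 46 active cFOS-, 35 silent cFOS+, 35 silent cFOS-, 3 depolarized cFOS+ and 2 depolarized cFOS-.

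Several cells were taken from 1 slice and the labels do not say which, so cells were not treated as replicates in any comparison. Each side of a comparison was 1 sample, no difference was tested, and no p-value is given. The shallowest cell had 3187057 reads, the median cell 6319546 and the deepest 25535298. The profiles of 1 pair of night silent cells, whose cFOS labels differ, were almost the same (r = 0.9995 across genes, against 0.696 for the next of 44253 pairs). Their mean was used as 1 cell with no cFOS state, so that 297 cells remained. The 12 neuron markers checked summed to between 153.8 and 34444 CPM per cell, so reads of neuron markers were present in every cell. Microglia markers summed to 100 CPM or more in 113 of the 297 cells and astrocyte markers in 56.9% of them. Oligodendrocyte markers did so in 138 cells, with 50.4% of day and 41.7% of night cells. Cells with microglia or astrocyte markers were left out in some settings below, but those with oligodendrocyte markers never were. Fos itself was lower in the cells labelled cFOS+ (2005 CPM) than in those labelled cFOS- (2676 CPM), in each of the 4 combinations of time and firing, so those names are used below only as labels.

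SNARE proteins on a vesicle (VAMPs) and on its target membrane (syntaxins and the SNAP-25 family) wind into a bundle that pulls the membranes together. At synapses VAMP2, syntaxin-1 and SNAP-25 form that bundle, and synaptotagmin-1 triggers it when calcium enters. Other syntaxins and VAMPs serve endosomes, the Golgi and autophagosomes. Synaptotagmins differ in how well they bind calcium, and some act on the dense-core vesicles that hold neuropeptides such as those SCN neurons release.

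Snap25, the plasma membrane SNARE cleaved by several botulinum toxins, was the highest member at 774.9 CPM per kb of exon, the scale used here to compare levels between genes. It had a read in 296 of 297 cells, with a median of 1499 CPM, a lowest cell at 0 and a highest at 5448 CPM. Snap47, a SNAP-25 relative without palmitoylated cysteines, followed at 435.6 CPM per kb, with a median cell at 765.2 CPM. Both other relatives were far lower. Snap23, the widely expressed counterpart of Snap25, stood at 5.08 CPM per kb, and Snap29, which serves autophagosome fusion, at 0.728 CPM per kb.

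Among the synaptotagmins the highest level per kb belonged to Syt4, whose protein binds calcium poorly and is found on dense-core vesicles. Syt4 reached 279.8 CPM per kb, Syt5 244.4, Syt11 139.5, Syt13 92.02 and Syt1, the fast calcium sensor, 68.2. Per cell, Syt4 had a median of 954.5 CPM and a highest value of 6961 CPM, while Syt1 had a median of 144.4 CPM and a highest value of 6179 CPM. Any Syt1 read was found in 77.8% of cells and any Syt4 read in 98.3%, and the lower quartile was 0.203 CPM for Syt1 and 413.1 CPM for Syt4. The 2 other fast sensors were lower, with Syt9 at 8.84 CPM per kb and Syt2, which drives release at many fast brainstem synapses, at 0.133. Syt10 (chromosome 15, 89782393 to 89841860, minus strand of GRCm38), a calcium sensor of IGF-1 secretion in olfactory neurons, stood at 63.2 CPM per kb, Syt3 at 18.8, Syt6 at 1.61 and Syt7, a sensor of slow release, at 0.638. Syt8 had a single read in 1 cell.

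The plasma membrane syntaxins were low beside their partners. Stx1a, a syntaxin of synaptic release, stood at 32.1 CPM per kb, Stx3 at 41.0, Stx4a at 31.8 and Stx2 at 25.5. The endosomal syntaxins Stx12 (98.0) and Stx7 (54.7) and the Golgi syntaxin Stx5a (65.5) had higher levels per kb than any plasma membrane syntaxin. Stx18, a SNARE of the endoplasmic reticulum, was at 34.7 CPM per kb with a read in 268 cells, more than any other syntaxin. Stx19 and Stx11 were the lowest syntaxins, at 3.64 and 0.236 CPM per kb.

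Of the VAMPs, Vamp2, the synaptic vesicle SNARE, stood at 245.5 CPM per kb, with a read in 96.97% of cells and a median of 606.1 CPM. Vamp4, a trans-Golgi and endosome SNARE, had 39.6 CPM per kb, and Vamp3, of recycling endosomes, had 35.04. Vamp1, the close relative that replaces Vamp2 at the neuromuscular junction, was at 3.53 CPM per kb. Vamp7 and Vamp8, of late endosomes and lysosomes, were at 22.3 and 7.80, and Vamp5 was nearly unread at 0.0143 CPM per kb.

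**Figure D1:**
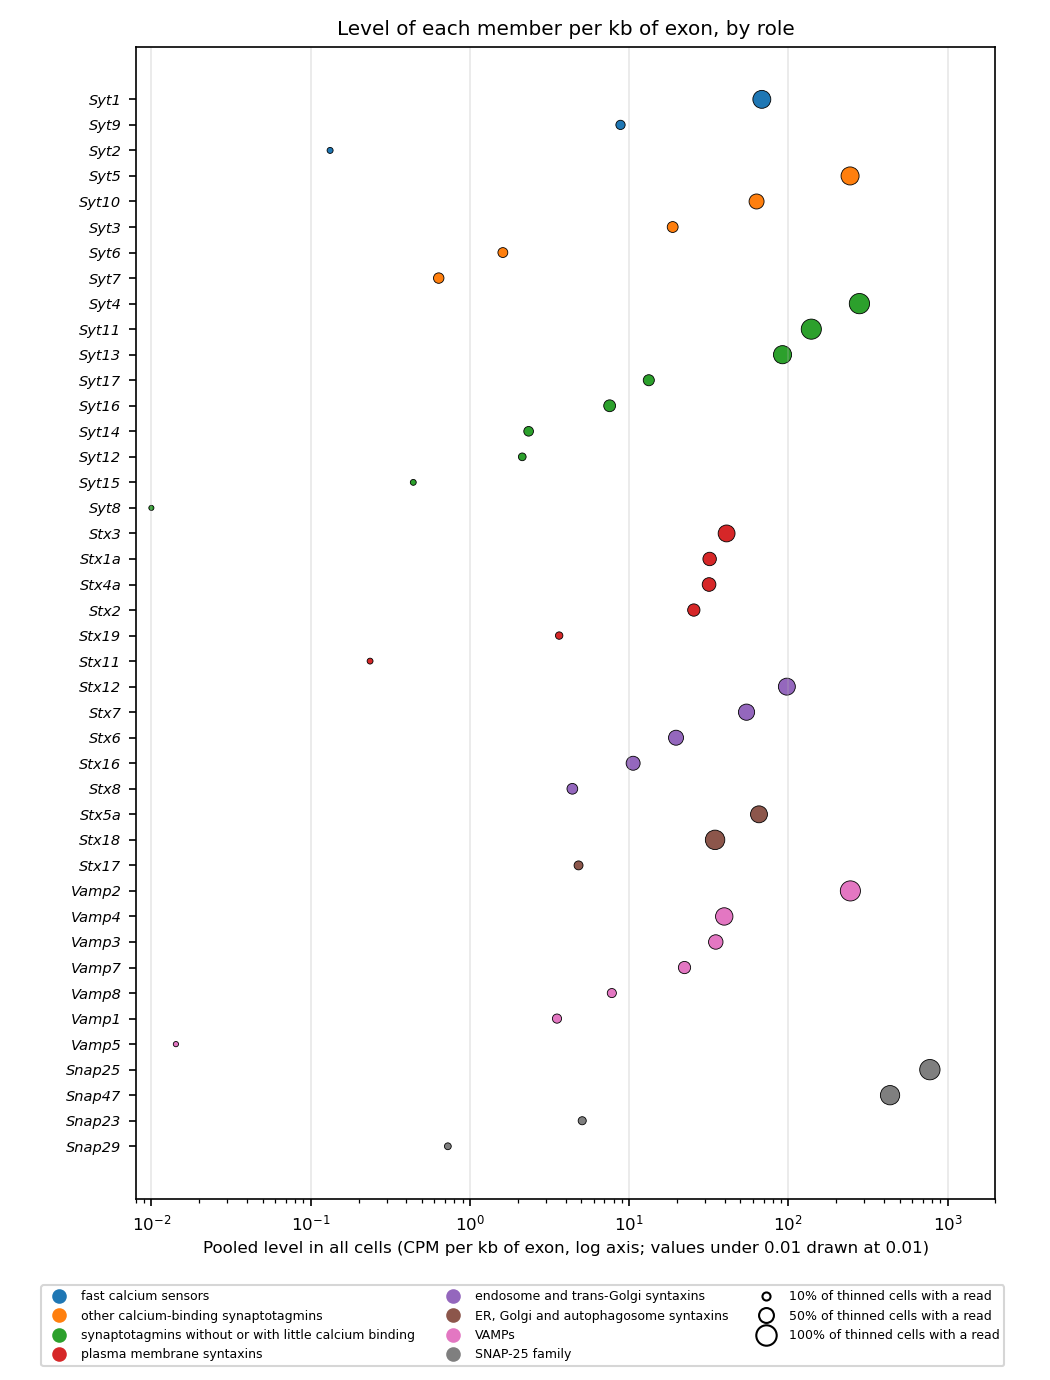
Level of 42 of the genes in all 297 cells, as CPM per kb of exon on a log axis, grouped and coloured by role; the size of a point gives the share of thinned cells with a read. Snap25 (774.9) and Snap47 (435.6) stand at the right, and Syt8 and Vamp5 at the left edge.

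In single cells the set was read in part. After each cell was thinned to 4210000 reads, which left out 30 shallower cells, a cell held reads of 7 to 29 of the 43 genes, with a median of 18. The median cell had reads of 6 of 17 synaptotagmins, 7 of 15 syntaxins, 3 of 7 VAMPs and 2 of 4 members of the SNAP-25 family. Which member led its family in CPM differed among families. Vamp2 led the VAMPs in 243 of the 296 cells with any VAMP read, and Snap25 led its family in 81.8% of cells. Syt4 led the synaptotagmins in 143 of 297 cells, Syt11 in 76, Syt1 in 29, Syt5 in 21 and Syt13 in 19. No syntaxin led in a majority: Stx12 led in 68 of 296 cells, Stx7 in 61, Stx5a in 43 and Stx3 in 41.

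Reads of Syt1 with Syt9 were found together about as often as their separate shares of cells would give. Vamp1 with Vamp2 could not be judged in this way. For Vamp1 and Vamp2, 39 cells had both, 220 Vamp2 alone and 1 cell Vamp1 alone, so 14.6% had both against 14.5% for independent reads. Syt1 was read without Syt9 in 170 cells, with it in 32, and was missing from 9 cells that had Syt9, so 12.0% had both against 11.6%. Of the other pairs compared, Syt10 with Syt3 departed most. Both were read in 21 thinned cells, 7.87% against 12.0% for independent reads. A missing read in these cells need not mean a missing transcript, because a pipette may have held only part of a cytoplasm. Nor need reads found together come from 1 cell, since microglia markers summed to 100 CPM or more in 113 of the 297 cells. Over the 297 cells, Spearman correlations of CPM among the 16 genes compared ran from -0.19 (Syt1 with Syt4) to 0.30 (Snap25 with Vamp2), with a median of 0.07 over 120 pairs, all from the same libraries.

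Among members at 100 CPM or more, the largest ratios lay between cells that carried different peptide transcripts. VIP and vasopressin (AVP) mark the core and shell neurons of the SCN. A cell was put in the Vip class with at least 100 CPM of Vip (55 cells), in the Avp class with at least 100 CPM of Avp and no Vip class (95 cells), and otherwise in neither (147 cells). These classes are cuts on 1 transcript, not the study's labels. Syt10 and Syt4 were highest in the Vip class and lowest in cells with neither peptide, and Syt1 had the opposite order.

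In the Vip class Syt10 ran from 0 to 1329 CPM per cell with a median of 132.5, in the Avp class from 0 to 660.1 with a median of 16.5, and in cells of neither class from 0 to 793.1 with a median of 0. The ranges overlapped, and the share of cells with Syt10 reads followed the same order. After thinning, 80.9% of the Vip class had a read (95% Clopper-Pearson interval 66.7 to 90.9), 63.3% of the Avp class (52.5 to 73.3) and 31.5% of the others (23.7 to 40.3). Such intervals count each cell as an independent draw and are no test between classes. Summed over cells, Syt10 was at 233.04 CPM in the Vip class, 140.6 in the Avp class and 59.1 in the others, a 3.89-fold difference between the first and the last. The order was the same by day (181.4, 133.8 and 55.6 CPM) and at night (270.3, 148.3 and 61.7 CPM). The log2 ratio of the Vip class over neither was 1.96, and it ranged from 1.06 to 2.32 over 9 other settings, among them active cells alone, silent cells alone and, as the lowest, the cells without astrocyte markers.

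Syt1 was the reverse case among well-measured members. Its median was 0 CPM in the Vip class (range 0 to 1379), 113.9 in the Avp class (0 to 6179) and 265.9 in cells of neither class (0 to 1777). Summed levels were 113.1, 347.1 and 394.1 CPM, so that the Vip class was 3.46-fold below the cells with neither peptide. After thinning, 46.8% of the Vip class had a Syt1 read (32.1 to 61.9), against 78.9% (69.0 to 86.8) and 83.8% (76.4 to 89.7). By day the Vip class had 43.1 CPM and at night 163.7 CPM, both below either other class at the same time. All 9 other settings kept the Vip class lower, with log2 ratios from -2.42 to -1.13 beside the -1.79 of all cells.

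Syt4 followed Syt10 in order but with a smaller range. Its median was 1367 CPM in the Vip class, 1005 in the Avp class and 664.4 in the others, and the highest cell of each class lay between 4081 and 6961 CPM. Summed levels were 1666, 1131 and 855.6 CPM, and the log2 ratio of the Vip class over neither, 0.96, stayed between 0.81 and 1.30 in the 9 other settings. Nearly every cell of each class had Syt4 reads (97.9, 98.9 and 98.5% after thinning), so here the amount per cell differed rather than the share.

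Among 37 members measured in the Vip class or in cells of neither class, Syt10 and Syt14 were at least 2-fold higher in the Vip class with the same direction by day and at night, which 6.26% of all 11888 measured genes were. In the other direction 7 of 37 were at least 2-fold lower in the Vip class, against 17% of all genes. These were Syt1, Syt6, Syt7, Syt9, Syt12, Syt16 and Vamp1, and both counts were near the share of all genes. Apart from Syt1 and Syt10 they were read in few cells. Vamp1 had 2.91 CPM in the Vip class, 5.07 in the Avp class and 24.9 in the others, and its share of thinned cells was 10.6%, 8.89% and 20.8%. Syt6 had 1.26, 8.58 and 12.5 CPM. Syt14 had 50.2, 16.3 and 15.5 CPM, but its log2 ratio of 1.63 went to -0.05 once the cells with astrocyte markers were left out. Syt9 was 2.12-fold lower in the Vip class, yet higher there (log2 ratio 1.82) among the cells with higher sample numbers.

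The Avp class stood apart in Syt3, a calcium sensor that drives internalization of AMPA receptors. Syt3 had 13.1 CPM there, against 41.9 in the Vip class and 78.4 in the others, and reads in 6.67% of thinned cells (2.49 to 14.0), against 23.4% (12.3 to 38.03) and 35.4% (27.2 to 44.3). The Avp class was lower than the others by day (19.9 against 53.6 CPM) and at night (5.59 against 96.2 CPM). Other members at least 2-fold apart between the Avp class and the cells of neither, in the same direction at both times, were found on both sides. Lower in the Avp class were 6 of 38 members, against 14.1% of all genes, and these included Syt3, Stx8, Syt7, Vamp1 and Vamp8. Stx8 had 18.4 CPM in the Avp class and 40.00 in the others, but 36.6 and 28.1 CPM when the classes were drawn at 10 CPM of a peptide. Syt10 and Snap29 were higher, 2 of 38 against 8.34%. Stx1a had 92.3 CPM in the Avp class and 57.9 in the others. Between the Vip and Avp classes 2 of 37 members (Syt3 and Syt14) were at least 2-fold higher in the Vip class, against 10.1% of all genes, and 7 were lower (Syt1, Syt6, Syt9, Syt17, Stx2, Stx19 and Snap29), against 15.3%. With the classes drawn at 1000 CPM the order of Stx19 turned, to 7.97 CPM in the Vip and 5.49 in the Avp class.

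**Figure D2:**
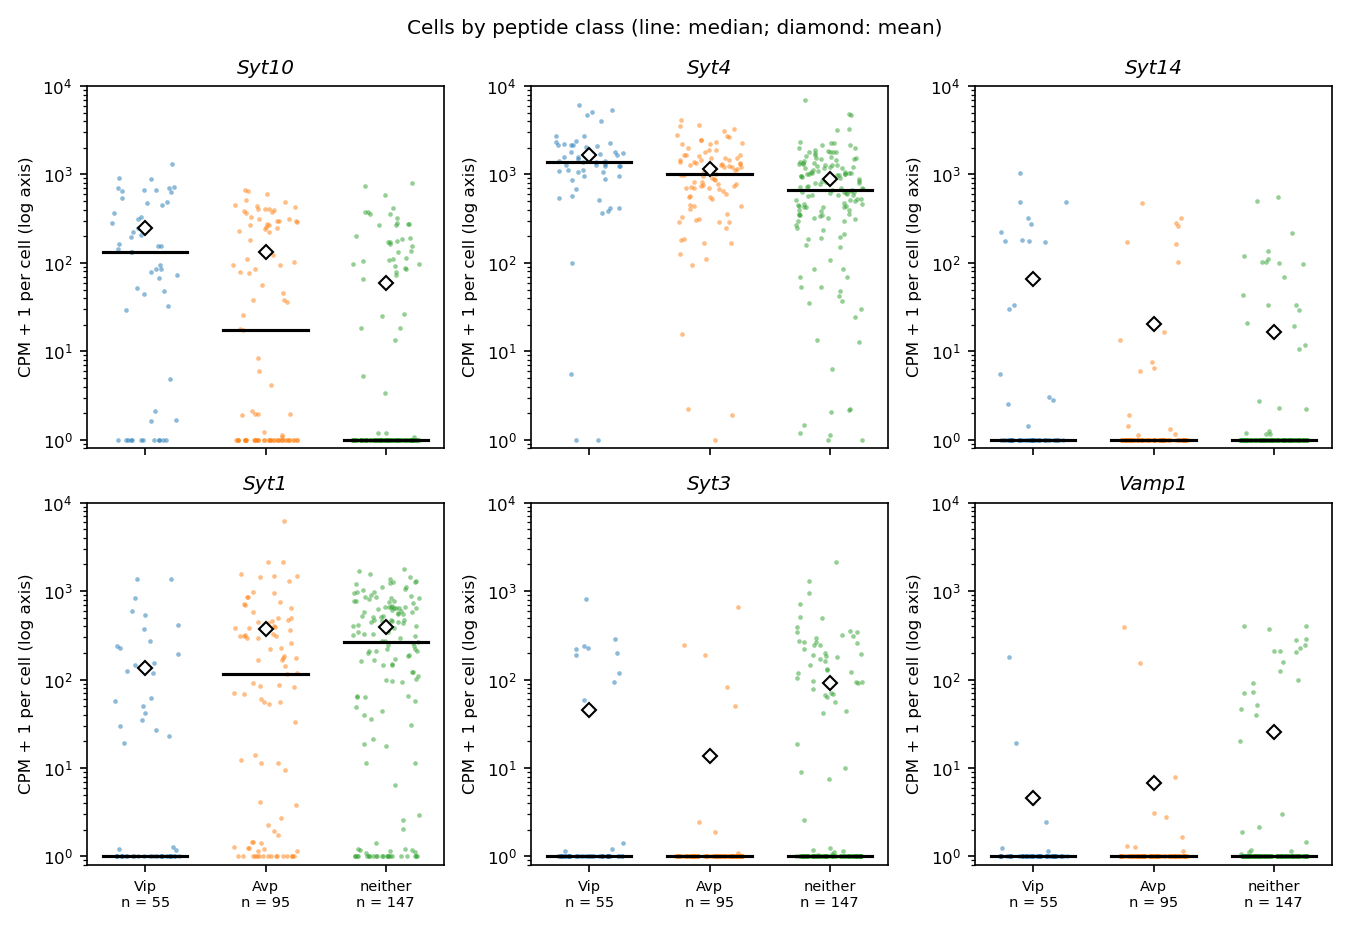
CPM + 1 of 6 members in each cell on a log axis, by peptide class, with the median as a line and the mean as a diamond. The Syt10 medians step down from 132.5 CPM in the Vip class to 16.5 and 0, while the Syt1 medians step up from 0 to 113.9 and 265.9.

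Snap25 and Vamp2, of the synaptic bundle, varied little by comparison. Summed Snap25 was 2140 CPM in the Vip class, 1456 in the Avp class and 1772 in the others, and Vamp2 was 753.0, 746.9 and 637.4 CPM. Across the 8 groups of active or silent cells, Snap25 was lowest in the day active cFOS- cells (1517 CPM) and highest in the day silent cFOS+ cells (1966 CPM), a ratio of 1.30. Vamp4 had a ratio of 1.42, Vamp2 of 1.51 (517.1 to 780.7 CPM in the same groups as Snap25) and Syt4 of 1.59. Stx1a, also of the synaptic bundle, had a ratio of 1.83. It was lowest in the night active cFOS- cells (45.5 CPM) and highest in the night active cFOS+ cells (83.2 CPM). Over the 15 members at 100 CPM or more in all cells, this ratio had a median of 1.97 and reached 3.31 for Stx3. Wider ratios belonged to members read in few cells, such as Syt6 at 18.1 and Vamp8 at 17.5.

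**Figure D3:**
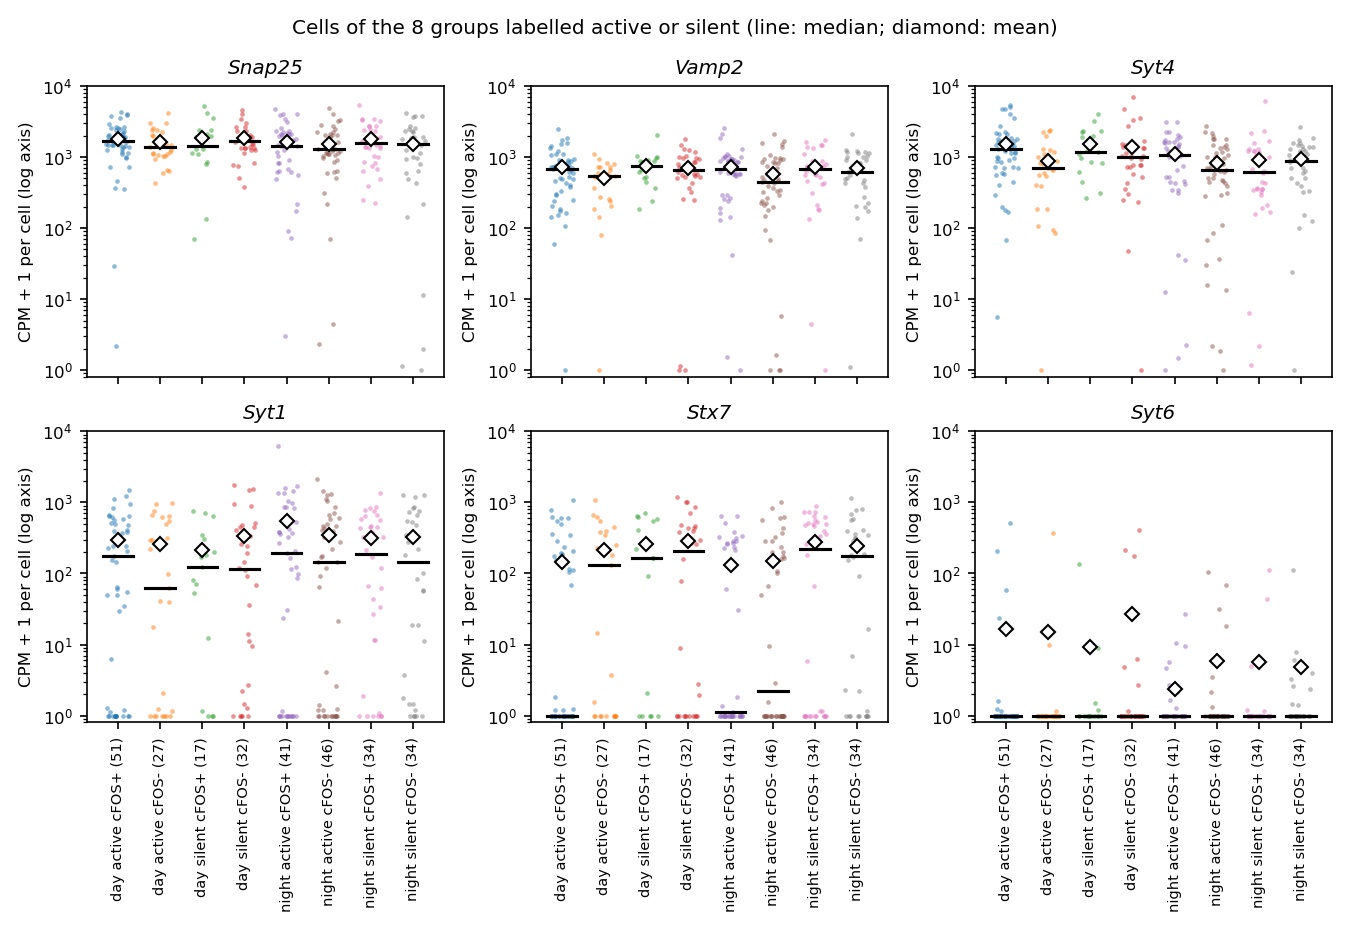
CPM + 1 of 6 members in each cell on a log axis, by the 8 groups of active or silent cells (number of cells in brackets), with the median as a line and the mean as a diamond. The cells of all groups overlap in Snap25 and Vamp2, the Stx7 medians of the 2 active cFOS+ groups are under 1 CPM, and Syt6 rests on a few cells.

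Day and night cells were apart by 2-fold or more in few members. Of 37 members measured at 5 CPM or more in one side, 14 were higher by day, against 47.8% of 11856 genes, with a median log2 ratio of -0.06 beside -0.03 for all genes. At 2-fold, Syt6 alone was higher by day, where the background was 7%, and Syt17 alone at night, where it was 7.44%. In all 4 strata (active or silent, labelled cFOS+ or cFOS-) Stx7, Syt4, Syt6 and Vamp3 were higher by day, against 5.94% of genes, and Stx18, Syt10, Syt16 and Syt17 at night, against 7.95%. Of these, Stx7 turned direction in 1 of 15 other settings (log2 ratio -0.37) and Syt10 in 2 (up to 0.04). By the rule for named genes (1.5-fold, in at least 3 strata and without the top cell of each side), 3 members were higher by day (background 10.6%) and 2 at night (13.7%).

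Syt6, a relative of Syt3 and Syt10 in the group of disulfide-linked synaptotagmins, had 17.2 CPM by day (highest cell 519.4) and 3.44 at night (highest cell 111.6), a 4.10-fold difference. Its median was 0 CPM at both times, and the share of thinned cells with a read did not follow the level, at 17.5% by day and 20% at night. The difference thus lay in the amount within few cells. The log2 ratio was 3.04, 1.58, 0.89 and 2.12 in the 4 strata, 2.02 and 1.92 in the lower and higher numbered cells, and 1.24 without the cells that held microglia markers.

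Syt4 was 1.33-fold higher by day, with 1264 CPM against 949.6. Its medians were 1026 and 769.0 CPM and its highest cells 6961 and 6119 CPM, so the ranges overlapped fully. The day side was higher in each stratum, by 0.47, 0.03, 0.61 and 0.40 on the log2 scale, and in all 15 other settings (0.22 to 0.78). Some of these settings could not have turned it. Changing the minimum CPM leaves a ratio as it is, and changing the pseudocount cannot turn its direction. Within the Vip class it had 1906 CPM by day and 1492 at night, within the Avp class 1273 and 972.9, and in the others 1018 and 739.4, so the day value was higher in each class.

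Vamp3 was 1.54-fold higher by day (91.6 against 59.3 CPM) and had medians of 0 at both times. Cells with microglia markers made up 43.3% of the day cells and 32.7% of the night cells, and held 93.1 CPM of Vamp3 against 62.7 in the cells without. All 11 microglia markers were higher by day, and their summed level ran from 0 to 34382 CPM per day cell and from 0 to 31204 per night cell. The log2 ratio of Vamp3 was 0.62 in all cells, 0.16 without those cells and 1.35 without the cells with astrocyte markers. Syt12, which binds no calcium, had 10.9 CPM by day and 5.48 at night, and the order turned without the cells holding microglia markers (log2 ratio -0.64) or astrocyte markers (-1.13).

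At night Syt17 was 2.04-fold higher (61.2 against 29.4 CPM) and Syt16 was 1.87-fold higher (79.6 against 42.2 CPM). Thinned shares moved with the levels, from 21.1 to 27.1% of cells for Syt17 and from 27.2 to 32.1% for Syt16. Without the cells holding astrocyte markers the log2 ratio of Syt17 went from -1.03 to -0.18, and that of Syt16 was -0.94 beside -0.90. Stx18 was 1.33-fold higher at night (120.6 against 90.5 CPM) in all 4 strata. Snap25 (1802 CPM by day, 1670.3 at night), Vamp2 (694.5 and 698.2), Syt11 (704.0 and 735.8), Stx1a (75.2 and 61.2) and Vamp1 (13.1 and 13.7) were within 1.23-fold. For Vamp1 this did not hold without the cells with astrocyte markers, where its log2 ratio was 3.10. Syt1 had 296.1 and 365.5 CPM, and Syt2 was under 1 CPM at both times.

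The clock's CLOCK and BMAL1 activators bind the E-box CACGTG, DBP and its relatives the D-box, and CREB the element TGACGTCA. The D-box was written here as TTANGTAA with any base at N, so a match may lie outside the sites those factors bind. These letters were searched on both strands in RefSeq promoters of GRCm38.p6, from 250 bases before to 50 after a start site. The table held 43 promoters of 32 members. The E-box was in 5 of them, of 4 genes since Syt6 has 2 starts (11.6%) against 7.15% of all 32851 promoters, the D-box in 1 (2.33% against 2.32%) and TGACGTCA in 0 (against 1.79%). The windows with a match are shown because they include Syt6, the member with the largest day to night ratio; capitals mark the motif, and each window reads 5′ to 3′ on the strand of the gene. Syt6 is at chr3:103575192-103575251 (plus strand, motif 26 to 21 bases before one annotated start and 63 to 58 before another), Stx6 at chr1:155158591-155158650 (plus), Syt14 at chr1:193035820-193035879 (minus), Vamp4 at chr1:162570325-162570384 (plus) and Stx2, with the D-box, at chr5:129008740-129008799 (minus).
Syt6: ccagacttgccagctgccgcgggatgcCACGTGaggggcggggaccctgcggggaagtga
Stx6: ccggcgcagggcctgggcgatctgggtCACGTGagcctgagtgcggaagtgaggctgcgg
Syt14: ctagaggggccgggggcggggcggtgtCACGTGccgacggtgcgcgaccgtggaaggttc
Vamp4: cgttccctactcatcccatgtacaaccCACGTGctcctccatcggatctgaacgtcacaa
Stx2: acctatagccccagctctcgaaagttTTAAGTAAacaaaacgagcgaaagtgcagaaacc
The genes with an E-box did not share a direction. Beside the 4.10-fold of Syt6, Syt14 was 1.47-fold higher by day (27.9 against 18.6 CPM), Vamp4 1.04-fold higher by day (161.0 against 154.1 CPM) and Stx6 1.06-fold lower (89.1 against 94.1 CPM). A match to these letters is a description of the sequence and not a bound site.

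**Figure D4:**
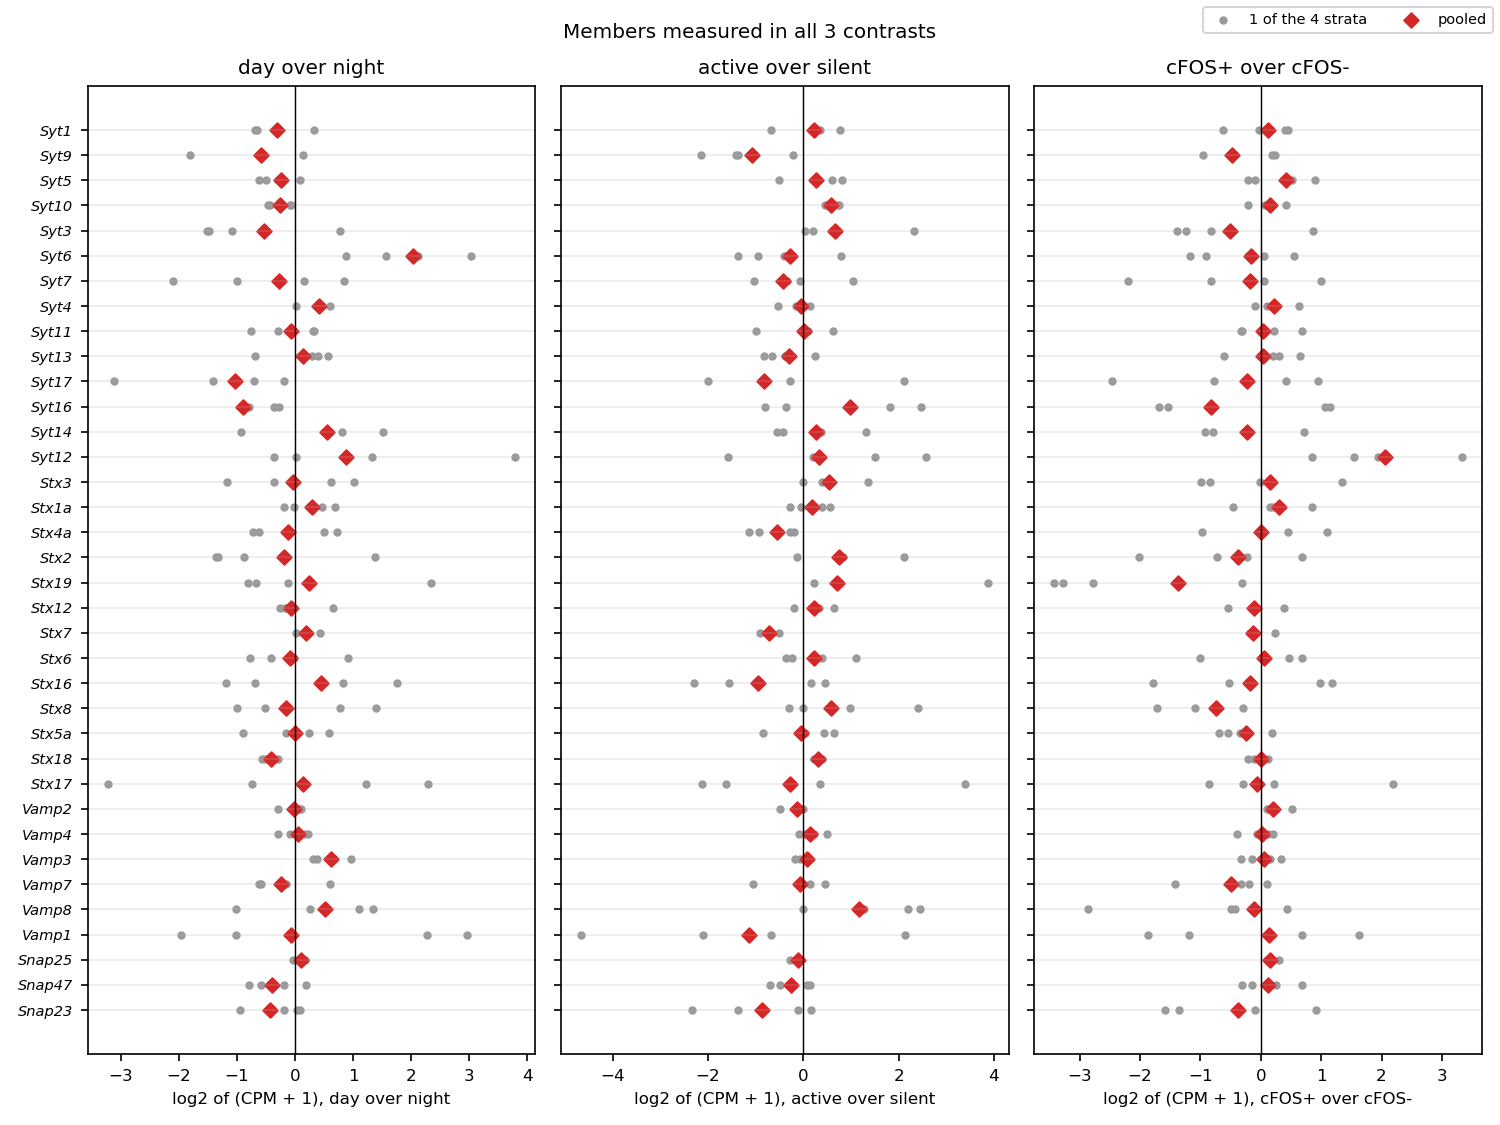
Log2 of (CPM + 1) of one side over the other for 36 members measured in all 3 contrasts, pooled (red diamonds) and in each of the 4 strata (grey points). Snap25, Vamp2 and Vamp4 hold close to 0 with narrow strata, while members read in few cells, such as Vamp1 and Stx17, have strata on both sides of 0. Syt4 lies on the day side in each of the 4 strata.

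Active and silent cells split the measured members evenly, 19 higher in each (background 50.6% of 11821 genes higher in active cells), with a median log2 ratio of -0.01 beside 0.01 for all genes. Vamp8 was at least 2-fold higher in active cells (background 7.21%), and Snap29, Syt9 and Vamp1 were at least 2-fold higher in silent cells (6.28%). In all 4 strata, 6 of 38 members were higher in active cells (7.48% of genes), namely Stx3, Stx18, Stx19, Syt3, Syt10 and Vamp8. Another 6 were higher in silent cells (6.3%), namely Snap25, Snap29, Stx4a, Stx7, Syt9 and Vamp2. By the rule for named genes 4 were higher in active cells (12.8%) and 6 in silent cells (10.2%).

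Stx7, a syntaxin of early and late endosomes (chromosome 10, 24149302 to 24190222, plus strand), was the well-measured member that differed most with firing. Active cells ran from 0 to 1099 CPM with a median of 0.384, and silent cells from 0 to 1180 CPM with a median of 175.5. Summed levels were 161.0 and 265.3 CPM, 1.64-fold lower in active cells. The share of thinned cells with a Stx7 read was 54.4% in active and 67.6% in silent cells. The log2 ratio was -0.72 by day and -0.90 at night among cells labelled cFOS+, -0.76 and -0.51 among those labelled cFOS-, and -0.33 and -1.10 in the lower and higher numbered cells. Without the Vip class it was -0.78. Stx7 was at 200.9 and 208.7 CPM in cells with and without microglia markers, and at 211.2 and 198.8 CPM in cells with and without astrocyte markers. A Stx7 read was found in 65.7% of cells with astrocyte markers (median 126.8 CPM) and in 51.6% of those without (median 0.180 CPM). Without the cells with astrocyte markers, which were 56.4% of active and 60.2% of silent cells, the log2 ratio of Stx7 was -0.56.

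Snap25 and Vamp2 were also lower in active cells in each stratum, but only by 1.08-fold (1671 against 1810 CPM for Snap25) and 1.09-fold (670.3 against 732.8 CPM for Vamp2). Syt9 was 2.12-fold lower in active cells (23.1 against 50.1 CPM), with 14.8 and 16.2% of thinned cells holding a read. Stx4a, which serves insertion of receptors at postsynaptic membranes and glucose transporters in muscle, was 1.47-fold lower (39.5 against 58.8 CPM). Snap29 had 0.473 against 5.34 CPM, Vamp1 8.62 against 20.1, Snap23 10.3 against 19.7 and Syt17 35.2 against 63.3 CPM. Snap23 and Vamp1 turned direction without the cells holding astrocyte markers, to log2 ratios of 3.45 and 3.07, and Snap29 went from -2.11 to -0.27. The astrocyte cells held more of all 3 (19.7 against 6.86 CPM for Snap23, 21.1 against 6.22 for Vamp1 and 4.05 against 0.583 for Snap29), and their share was 56.4% of active and 60.2% of silent cells.

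Higher in active cells were Stx2 (92.03 against 54.6 CPM), Syt3 (60.3 against 37.8 CPM), Stx19 (12.7 against 7.45 CPM) and Vamp8 (23.3 against 9.81 CPM). Vamp8 had 39.2 CPM in the cells with microglia markers and 4.92 in those without, and its log2 ratio of 1.17 went to -0.20 without them; 37.0% of active and 38.1% of silent cells held those markers. Stx3, the syntaxin of ribbon synapses and of dendritic receptor insertion, was 1.46-fold higher in active cells (212.0 against 145.0 CPM), although its medians were close (16.2 and 17.6 CPM) and its log2 ratio was 0.95 in the lower and 0.08 in the higher numbered cells.

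Syt10 was 1.49-fold higher in active cells (136.5 against 91.2 CPM) in all 4 strata, with 49.7 and 50.5% of thinned cells holding a read. The Vip class, where Syt10 was highest, made up 23.6% of active cells and 11.0% of silent cells. Without that class the log2 ratio of Syt10 was 0.21, beside 0.58 with it, and without the cells holding microglia markers it was 0.10. Syt4 (1075 against 1112 CPM), Syt11 (726.4 against 714.9), Stx1a (70.9 against 62.8) and Syt1 (356.7 against 303.6) differed by 1.17-fold at most, although the log2 ratio of Stx1a was 0.77 in the lower numbered cells. Syt2 had 1.40 against 0.295 CPM.

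Between cells labelled cFOS+ and cFOS-, 19 of 37 members were higher in those labelled cFOS+ (46.3% of 11828 genes), with a median log2 ratio of 0.00 beside -0.04 for all genes. Syt12 was at least 2-fold higher in cells labelled cFOS+ (background 5.74%) and Stx19 in those labelled cFOS- (8.29%). In all 4 strata Snap25, Vamp2 and Syt12 were higher in cells labelled cFOS+ (5.68%), and Stx8 and Stx19 lower (7.48%). By the rule for named genes Syt12 was higher (9.49%) and Stx8 and Stx19 were lower (13.8%).

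Snap25 had 1824 CPM in cells labelled cFOS+, with a median of 1640.0, and 1634 CPM in those labelled cFOS-, with a median of 1404, a 1.12-fold difference. Vamp2 had 742.9 against 643.3 CPM with medians of 673.8 and 564.7, a 1.15-fold difference. Its direction held in all 15 other settings (log2 ratios from 0.14 to 0.48), although those of the minimum CPM and the pseudocount could not turn it. Both ranges overlapped almost completely. Syt12 had 13.4 CPM (highest cell 505.7) against 2.45 (highest cell 232.8), with reads in 11.0 and 6.35% of thinned cells, so its 4.18-fold difference rested on few cells. Stx19, an unusual syntaxin without a membrane anchor, had 5.47 against 15.7 CPM with reads in 5.51 and 9.52% of thinned cells. Stx8, of late endosomes, had 22.5 against 38.5 CPM. The log2 ratio of Stx8, -0.75 in all cells, was 0.10 without the cells holding astrocyte markers and 0.40 in the higher numbered cells. Syt4 was 1.17-fold higher in cells labelled cFOS+ (1173 against 1005 CPM), but the Vip class made up 24.5% of these cells and 12.2% of those labelled cFOS-, and without it the log2 ratio went from 0.22 to -0.01. Syt1, Syt11, Stx1a and Vamp1 lay within 1.23-fold. The log2 ratio of Vamp1 was -1.20 in the lower and 1.59 in the higher numbered cells, that of Stx1a was 0.995 in the lower numbered cells, and that of Syt1 was -0.36 without the cells with astrocyte markers. Syt2 had 0.206 against 1.69 CPM.

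The 14 depolarized cells did not enter these contrasts. Of the 2 day cells labelled cFOS+, 1 had 97.04 CPM of Snap25 and 2143 of Syt1, and the other had 1107 and 0 CPM. In the 7 day cells labelled cFOS-, Snap25 ran from 1452 to 4217 CPM with a median of 1824, Vamp2 from 240.9 to 1142 with a median of 408.8, Syt4 from 1.05 to 2474 with a median of 573.4 and Syt1 from 0 to 258.5 with a median of 0.259. The 3 night cells labelled cFOS+ had 639.2, 1501 and 1529 CPM of Snap25, and the 2 labelled cFOS- had 520.7 and 4239 CPM. The Snap25 values of all 14 lay within the range of the active and silent cells.

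Other genes of vesicle release, taken from a list of 55 regulators, and 12 further SNAREs were read by the same rule. Of 45 measured regulators, 22 were higher by day (47.8% of all genes were), 27 in active cells (50.6%) and 22 in cells labelled cFOS+ (46.3%). By day 5 passed the rule for named genes upward (10.6% of all genes) and 3 downward (13.7%), among them Sv2c, a vesicle glycoprotein (12.4 against 6.76 CPM), and Cadps, the dense-core vesicle priming factor CAPS1 (60.4 against 96.6 CPM), both with 1 direction in all 4 strata. In active cells 3 passed in each direction (12.8% upward and 10.2% downward for all genes). Stxbp5, the tomosyn that competes with VAMP2, was 2.60-fold higher there (135.6 against 51.5 CPM), its relative Stxbp5l 1.63-fold (37.2 against 22.4 CPM) and Cadps2, the second CAPS, 2.12-fold (199.8 against 93.9 CPM), each in all 4 strata. Napg, a cofactor of SNARE disassembly, was 1.51-fold lower (94.6 against 143.1 CPM). In cells labelled cFOS+ 8 passed upward (9.49%) and 1 downward (13.8%). Synpr, a vesicle membrane protein, was 2.31-fold higher (394.7 against 170.1 CPM), Cadps2 1.68-fold (195.8 against 116.0 CPM) and Syn3 1.86-fold (43.8 against 23.1 CPM), each in all 4 strata. Of the 12 further SNAREs, 7 were higher by day, 2 in active cells and 7 in cells labelled cFOS+, beside the same 47.8%, 50.6% and 46.3% of all genes. Sec22a, a relative of the SNARE Sec22b, was 2.14-fold higher by day (86.5 against 39.8 CPM), and Bet1l, of the Golgi, 1.58-fold higher in cells labelled cFOS+ (126.8 against 80.0 CPM), both in all 4 strata. None of these genes was compared again without the Vip class, without cells with microglia or astrocyte markers, or by cell number. The Vip class was 23.6% of active and 11.0% of silent cells. It was 24.5% of cells labelled cFOS+ and 12.2% of those labelled cFOS-, and its part in these ratios was not tested.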

How the data were processed

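The authors deposited raw read counts of 22800 gene symbols in 298 cells, and a normalized signal in which each of the 298 columns was its raw counts over a single factor (relative tolerance 1e-06). The log2 table was not used. STAR, DESeq2 and GRCm38.p4 are named, without roles, in the submitters' processing notes; counting tool, versions, annotation and strand use are not stated there or in the labels. No molecular identifiers are mentioned, so counts are reads.

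Counts were summed over cells and scaled to CPM. Ratios are log2 of (CPM + 1), folds are on that scale, and a gene was measured with 5 CPM or more in one side. Poisson 95% intervals of summed CPM lay within 1% of the value for members above 100 CPM. They cover counting error of reads only. The Clopper-Pearson intervals of shares count each cell as an independent draw, which cells of 1 slice need not be. Neither covers animals or slices, and neither tests a difference. Shares were taken in cells thinned to 4210000 reads, leaving out 30 shallower ones. No cell filter or doublet caller was applied, since each library came from 1 pipette. Even so, microglia markers summed to 100 CPM or more in 113 of the 297 cells. Exon lengths came from GENCODE M21 (43 of 43 members), whereas the annotation behind the counts is unknown. Named genes were Snap25, Vamp1, Vamp2, Stx1a, Syt1, Syt2, Syt4 and Syt11, the extremes per kb, and any member at 1.5-fold with 1 direction in at least 3 of 4 strata and without each side's top cell; members alike in all 4 strata, the members past 2-fold between peptide classes and Snap47, Syt3, Syt5, Stx12 and similar high members were chosen with their values seen. The values of 1 member are not reported here, though the counts include it. The members and lists were chosen with earlier results of these data known. The ratio script was tested on simulated data. Python 3.11.15, numpy 2.4.6, pandas 2.3.3 and scipy 1.17.1 were used.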

Additional observations from a re-analysis of the deposited data

Results flagged for a closer look

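Among the 7 day depolarized cells labelled cFOS-, the highest cell stood farther from the others than Dixon's limit for a group of 7 (a gap of 0.568 of the range) in 4 of the 9 members looked at. These highest values were 4217 CPM of Snap25 (next cell 1979), 1222 CPM of Stx1a (next 184.8), 812.8 CPM of Syt13 (next 337.2) and 2065 CPM of Syt5 (next 530.5). Stx1a and Syt5 were highest in the same cell and the other 2 in 2 different cells. Chance alone passes this limit in about 1 in 20 groups for values with a normal spread, and single-cell CPM is skewed.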

How the results depend on the processing

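The number of members higher in one side stayed within 1.5 times its value in every setting tried: 11 to 18 beside 14 for day, 16 to 21 beside 19 for active cells and 16 to 22 beside 19 for cells labelled cFOS+. Members that turn in opposite directions cancel in this number, and changing the pseudocount cannot turn any. It therefore does not show that single members kept their direction. The number past 2-fold was less stable. For day against night it was 2, and became 1 with a pseudocount of 10 CPM or a minimum of 20 CPM, 5 without the top cell of each side or without cells with microglia markers, 7 without cells with astrocyte markers, and 4 in the lower and 4 in the higher numbered cells. For active against silent cells it was 4, and became 0 with a pseudocount of 10 CPM and 7 without cells with astrocyte markers or in the higher numbered cells. For the cFOS labels it was 2, and became 0 with a pseudocount of 10 CPM or a minimum of 20 CPM, 5 without microglia cells, 6 without astrocyte cells, 7 in either range of cell numbers and 4 without the Vip class, a setting chosen after seeing the data, as were those of the peptide classes. Among the ratios past 1.5-fold, directions that turned were Syt12 by day (-0.64 without microglia and -1.13 without astrocyte cells), Vamp8 in active cells (-0.20 without microglia cells), Snap23 (3.45) and Vamp1 (3.07) in active cells without astrocyte cells, and Stx8 in cells labelled cFOS+ (0.098 without astrocyte cells and 0.40 in higher numbers). In the Vip class against neither, Syt9 turned (1.82 in higher numbers and 0.27 without microglia cells), and so did Syt14 (-0.052 without astrocyte cells). Ratios nearer to 0 also changed sign. Vamp1 ran from -0.41 to 3.10 for day over night and from -1.20 to 1.59 for the cFOS labels, Stx1a from -0.09 to 0.995 and Syt1 from -0.36 to 0.64 for the cFOS labels, and Syt2 from -0.26 to 1.93 for active over silent cells. The cause was not tested. Of the other values of single genes, each counted once per setting, 819 were counted as unchanged and 98 as moved. The unchanged ones include every ratio under another minimum CPM, which leaves a ratio as it is, so the 819 overstates stability. The limit was 1 SD of the strata for ratios of the day, firing and cFOS contrasts, so it was wide for genes whose strata differed. Ratios between peptide classes and shares of cells were included in these counts but judged by other limits. No paired analysis was possible because only 1 cell number occurs in 2 groups and the labels name no animal or slice. Members under 5 CPM cannot be compared, and those read in under 10% of cells rest on a few cells.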
